A study of Mus musculus with 17 samples.

Results

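The proteasome genes analysed here are all mouse genes whose symbol is Psma, Psmb, Psmc or Psmd followed by a digit, without the 3 immunoproteasome genes Psmb8, Psmb9 and Psmb10. The rule found 37 of the 16738 gene names in the tables, by symbol alone. It uses no measured value to pick a gene, but it was chosen with earlier results of these data known. Their transcripts were followed through the first week of life, on postnatal days 0, 3 and 7 (P0, P3, P7), in both heart ventricles (left, LV; right, RV) of male C57Bl/6 mice. Total RNA of untreated hearts was sequenced as strand-specific paired-end libraries, 3 for each chamber and age and 2 for RV P7. The replicates are biological ones according to the labels, which name 1 inbred strain. Whether all animals shared the same genetic background was not tested. By the labels, P0 precedes closure of the ductus arteriosus, P3 is a transition, and at P7 most cardiomyocytes have terminally differentiated. Levels are in RPKM, reads scaled by transcript length and library size, so that genes are compared per length. The sources used here do not say whether animals were pooled for a library.

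The proteasome is the protease that degrades most ubiquitin-tagged proteins of the cell. Its 20S core is a barrel of stacked rings: the outer alpha rings, encoded by the Psma genes, gate the entrance, and the inner beta rings, encoded by the Psmb genes, hold the cleaving sites. The 19S regulatory particle caps the barrel. Its ring of ATPases (Psmc) unfolds the substrate and threads it into the core, while its non-ATPase subunits (Psmd) bind ubiquitin chains and cut them off. In heart muscle, where contractile proteins turn over continually, this machine is a main route of protein quality control, and the transcription factor encoded by Nfe2l1 is known to raise the whole set when proteasome activity falls short.

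The 250 bases before the transcription start are shown for 4 of the genes the results turn on: the catalytic subunits Psmb5 and Psmb6, the 19S lid subunit Psmd6, all of which fell between P0 and P7 in the deposited values, and the alpha ring subunit Psma7, whose change averaged over the chambers was the smallest of its ring. They come from the RefSeq promoter table of GRCm38.p6 and read 5′ to 3′ in the direction of the gene. Capitals mark matches, on either strand, to CCAAT (the box bound by NF-Y), TGACNNNGC (the core of the antioxidant response element, the kind of site that Nfe2l1 binds) and CCGGAAG (an ETS site).
Psmb5, chr14:54617996-54618245, minus strand: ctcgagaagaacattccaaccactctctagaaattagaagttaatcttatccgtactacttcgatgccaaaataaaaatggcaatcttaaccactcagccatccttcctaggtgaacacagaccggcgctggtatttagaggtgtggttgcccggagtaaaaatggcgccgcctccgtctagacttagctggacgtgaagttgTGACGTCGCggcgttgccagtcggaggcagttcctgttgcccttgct
Psmb6, chr11:70525107-70525356, plus strand: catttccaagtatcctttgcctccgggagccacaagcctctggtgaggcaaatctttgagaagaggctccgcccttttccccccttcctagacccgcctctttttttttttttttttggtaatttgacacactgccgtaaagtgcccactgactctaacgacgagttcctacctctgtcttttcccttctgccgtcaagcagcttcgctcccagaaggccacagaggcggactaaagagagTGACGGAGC
Psmd6, chr14:14120946-14121195, minus strand: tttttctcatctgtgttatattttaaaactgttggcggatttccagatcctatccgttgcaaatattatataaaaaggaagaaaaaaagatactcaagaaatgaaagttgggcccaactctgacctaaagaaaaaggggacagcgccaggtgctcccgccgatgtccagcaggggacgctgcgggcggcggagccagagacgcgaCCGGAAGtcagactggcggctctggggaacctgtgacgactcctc
Psma7, chr2:180042465-180042714, minus strand: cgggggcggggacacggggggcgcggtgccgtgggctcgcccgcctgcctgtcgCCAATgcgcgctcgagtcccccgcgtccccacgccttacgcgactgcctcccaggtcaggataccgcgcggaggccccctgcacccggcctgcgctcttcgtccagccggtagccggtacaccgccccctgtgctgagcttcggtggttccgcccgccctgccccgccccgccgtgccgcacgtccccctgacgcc

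Psmb5 held TGACNNNGC 47 bases and Psmb6 9 bases before the start, Psmd6 held CCGGAAG, and Psma7 held CCAAT 196 bases before it. The promoter table places the Psmb6 start at 70525357, 33 bases inside the span that the RefSeq gene table gives from 70525324, so the Psmb6 match lies within that span; the starts of both tables are the same for the other 3 genes shown. Promoters were found for 30 of the 37 genes, in 24 of them with the same start in both tables. Of the 30, 5 held TGACNNNGC (16.7%; Psmb5, Psmb6, Psmc6, Psmd12 and Psmd9), against 12.2% of the 8180 promoters of tested genes and 10.1% of all 27025 promoters of this length. CCGGAAG was in 9 of 30 (30%), against 14.5% of the promoters of tested genes and 7.05% of all. CCAAT was in 13 of 30 (43.3%, against 37.2% and 34.5%), the GC box GGGCGG in 17 (56.7%, against 61.1% and 32.9%), and TATAAA in 3 (10%, against 6.43% and 12.97%). Both strands were searched and no motif contains another. The matches are letters in a window and were not tied to any change in level.

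Several facts of the libraries bear on all that follows. The 17 libraries held 27561845 to 41061058 reads (median 36153964), and 35 of the 37 genes reached 1 RPKM in at least 2 libraries, the condition for testing. The libraries also differed by something that is neither chamber nor age. The RefSeq entry NM_008710, unnamed in the tables used here, stood at 2.99 to 15.6 RPKM in all 6 P0 libraries and at 3.19 to 14.6 RPKM in replicate 1 of LV P3, LV P7, RV P3 and RV P7. In the other 7 P3 and P7 libraries it lay at 0.128 to 0.205 RPKM, so that the P0 groups and the later groups were not alike in it. What set these libraries apart was not tested, and age is partly mixed with it in every comparison with P0. The share of a library's reads that lay in the listed messenger RNA entries fell with age, from 71.2% ± 1.71 to 56.5% ± 2.34 in the LV and from 70.1% ± 2.39 to 56.2% ± 2.83 in the RV (SD, n = 3, n = 2 for RV P7). RPKM is scaled to all reads of a library, so the listed entries held less of it at P7. Over all 10668 tested entries the median log2 change of P7 against P0 was -0.31 for the LV and -0.29 for the RV; after scaling each library to its upper quartile it was -0.02 in both. Changes are therefore given for the values as deposited and, where the call or direction of a named proteasome gene differs, after that scaling as well, for the gene or as a count over its group. In bulk tissue, fewer cells of a kind and less RNA per cell cannot be told apart.

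Between P0 and P7 the proteasome genes fell nearly as a block in both chambers in the values as deposited, while after upper-quartile scaling only 7 (LV) and 6 (RV) genes were called lower. With limma and Benjamini-Hochberg adjustment over all 10668 tested entries (called at an adjusted p under 0.05, two-sided), 34 of the 35 tested genes were lower and 0 higher in the LV, where 53.0% of all tested entries were called lower and 11.8% higher. In the RV 31 were lower and 0 higher, against 46.1% and 9.81% of all entries. The one gene not called in the LV was the 19S subunit Psmd13; in the RV these were Psmd3, Psmd11, Psmd13 and Psmd10. All P7 libraries lay below all P0 libraries for 33 of 35 genes in the LV (57.0% of all tested entries) and for 34 of 35 in the RV (56.4%). The exceptions were Psma7 and Psmd13 in the LV and Psmd10 in the RV.

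The median log2 change of the 35 genes was -0.43 (LV) and -0.41 (RV), and its difference from the median of all tested entries was -0.12 in both. The genes lay close together. Their interquartile range was 0.18 for the LV and 0.19 for the RV, where that of all tested entries was 0.53 and 0.49. Abundant transcripts in general were spread more widely. The 1673 tested entries with a mean of at least 30 RPKM, 30 of them proteasome genes, had an interquartile range of 0.56 and 0.54 and medians of -0.32 and -0.37. Changes ran from -1.02 (Psmc3ip) to -0.16 (Psmd13) in the LV and from -0.85 (Psmc3ip) to -0.15 (Psmd10) in the RV. Psmc3ip was matched by its symbol only and encodes no subunit of the proteasome.

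**Figure D1:**
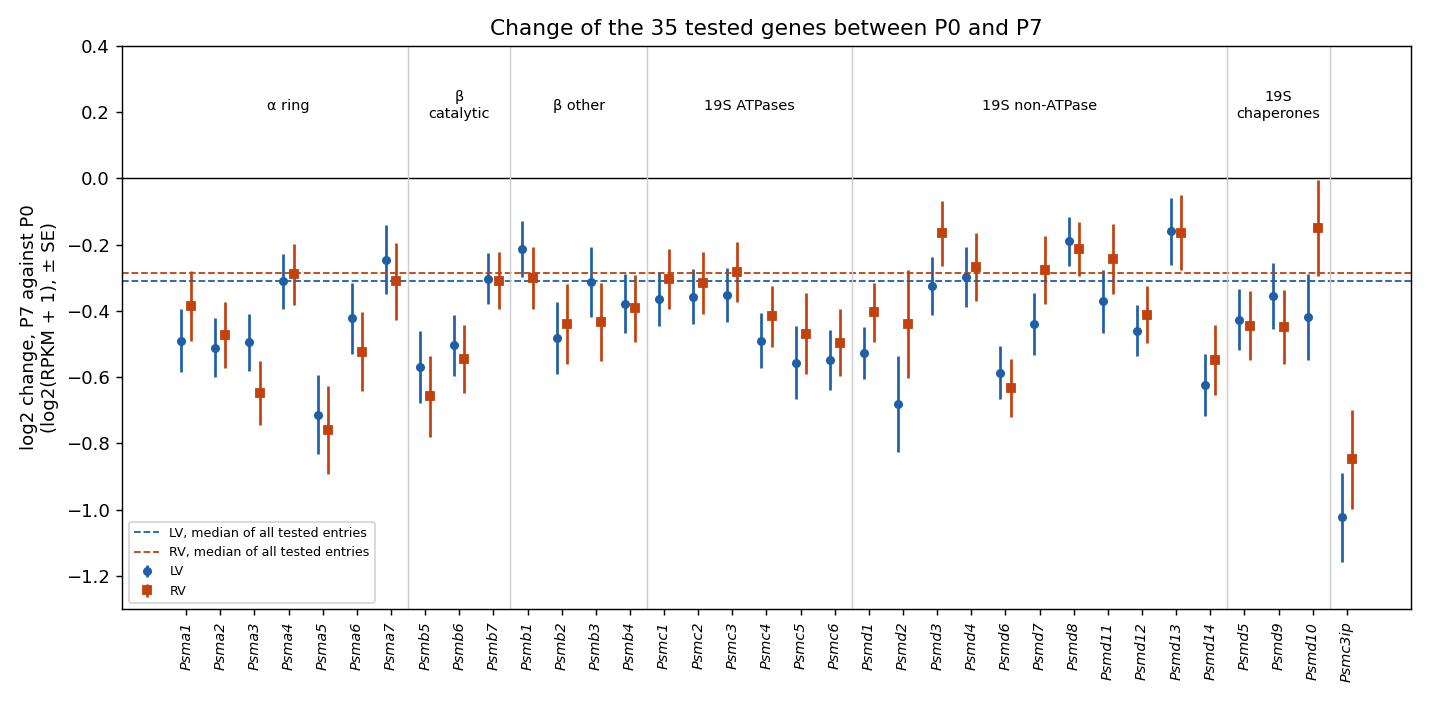
Log2 change of P7 against P0 on the log2(RPKM + 1) scale for each of the 35 tested genes, in the LV (blue circles) and the RV (orange squares); bars are standard errors from limma and dashed lines the medians of all 10668 tested entries, -0.31 and -0.29. All points lie below 0, and Psmc3ip lies lowest in both chambers.

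How much of this decline exceeded the shift of the whole library depended on the scaling. After upper-quartile scaling the medians of the 35 genes were -0.09 in both chambers, and the calls dropped to 7 lower and 0 higher in the LV and 6 lower and 0 higher in the RV. These counts lie below the share of all tested entries, of which 25.3% were called lower and 24.4% higher in the LV under that scaling, and 20.6% and 19.8% in the RV. The change was above 0 for 10 of the 35 genes in the LV and for 14 in the RV, 0 of them called, with Psmd13 highest in the LV and Psmd3 in the RV. Scaling to the total of the listed entries gave 15 genes called lower in the LV and 5 in the RV, where 3205 and 2022 of all 10668 entries were. The genes called lower under all 3 scalings were Psma5, Psmb5, Psmd1, Psmd2, Psmd6, Psmd14 and Psmc3ip in the LV, and Psma3, Psma5, Psmb5, Psmd6 and Psmc3ip in the RV. The subunit genes Psma5, Psmb5 and Psmd6 were thus called lower in both chambers whichever scaling was used. So was Psmc3ip, which encodes no subunit. When only the 10 libraries with NM_008710 above 1 RPKM were compared, 1 P7 library was left per chamber. The medians of the 35 genes were then -0.38 (LV) and -0.42 (RV), beside -0.27 and -0.33 for all tested entries.

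**Figure D2:**
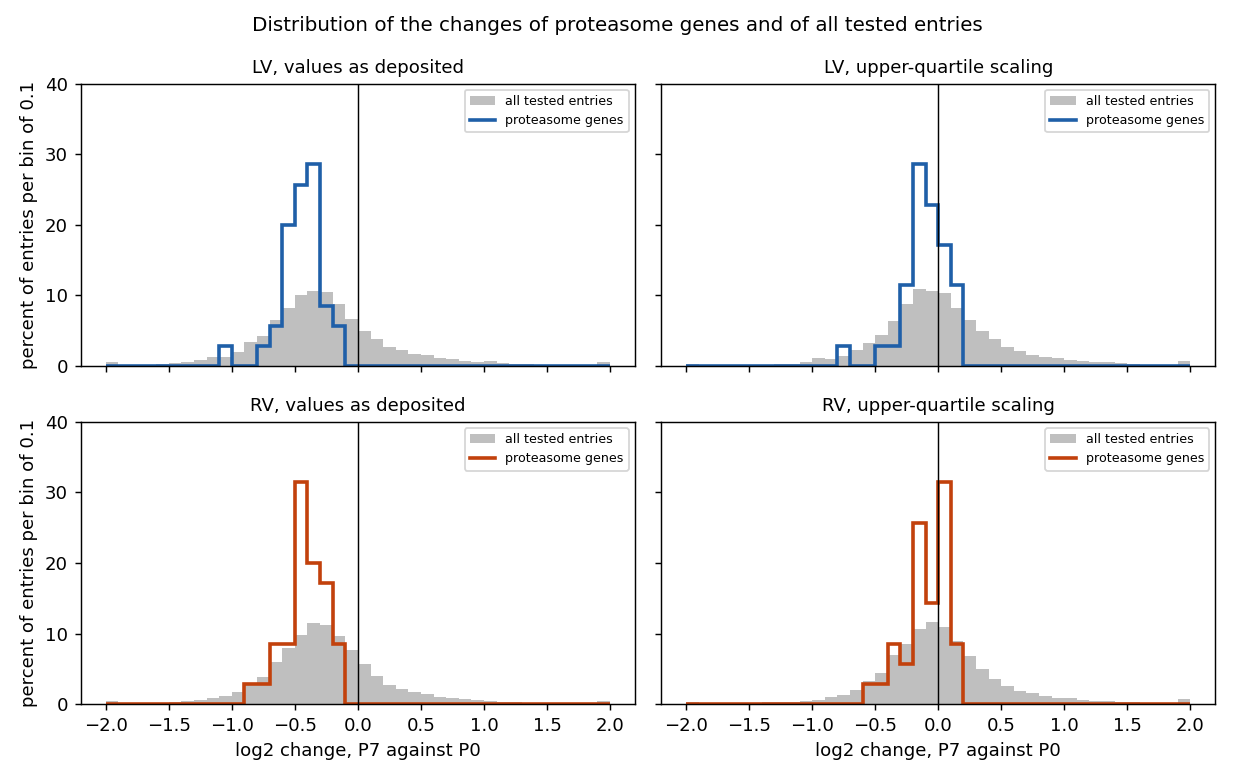
Distribution of log2 changes of P7 against P0 for the proteasome genes (coloured outline) and all tested entries (grey), in percent of entries per bin of 0.1, with values as deposited (left) and after upper-quartile scaling (right). Changes beyond 2 in either direction are counted in the end bins. The outline is narrower than the grey distribution in all 4 panels and its median moves from -0.43 to -0.09 in the LV and from -0.41 to -0.09 in the RV with the scaling.

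The alpha ring genes were expressed at mean levels of 47.4 RPKM (Psma5) to 131 RPKM (Psma4) over all libraries, and all 7 tested members were lower at P7 in each chamber, with median log2 changes of -0.49 in the LV and -0.47 in the RV. After upper-quartile scaling 1 in the LV and 2 in the RV were called lower. The counts of this and the following role groups are read against all tested entries. Of those, 53.0% in the LV and 46.1% in the RV were called lower in the deposited values. After upper-quartile scaling the shares were 25.3% and 20.6%. Of the alpha ring genes, Psma5 changed most. In the LV it stood at 55.95, 53.9 and 59.7 RPKM at P0, 53.7, 41.1 and 46 at P3 and 35.3, 30.5 and 36.7 at P7. In the RV the values were 71.9, 51.7 and 60.03 at P0, 42.1, 47.4 and 49.1 at P3 and 32.5 and 38.6 RPKM at P7. Every P7 library lay below every P3 and P0 library of both chambers. The log2 change of P7 against P0 was -0.71 ± 0.12 in the LV (adjusted p = 4.47e-05) and -0.76 ± 0.13 in the RV (adjusted p = 0.000117), and -0.37 (adjusted p = 0.0028) and -0.44 (adjusted p = 0.0021) after upper-quartile scaling.

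Psma7 was the alpha ring gene with the smallest decline averaged over the chambers. Its LV levels were 126, 124 and 111 RPKM at P0, 112, 114 and 104 at P3 and 113, 97.3 and 94.8 at P7, so that 1 P7 library lay within the P0 range. RV levels were 141, 105 and 116 at P0, 87.9, 98.1 and 101 at P3 and 92.7 and 101 RPKM at P7, without overlap between P0 and P7. It was called lower in both chambers (log2 = -0.25 ± 0.10, adjusted p = 0.0439 in the LV; log2 = -0.31 ± 0.12, adjusted p = 0.0286 in the RV), but upper-quartile scaling turned the sign (0.11, adjusted p = 0.375 in the LV; 0.01, adjusted p = 0.937 in the RV). Psma8, which encodes the alpha subunit that replaces the Psma7 product in the testis, was listed at 0.302 to 1.26 RPKM (17 to 65 reads per library), reached 1 RPKM in only 1 library and was not tested.

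The catalytic beta genes fell in both chambers, 3 of 3 in each. Psmb5 carries the chymotrypsin-like activity, Psmb6 the caspase-like and Psmb7 the trypsin-like activity of the constitutive core. Psmb5 levels in the LV were 102, 101 and 114 RPKM at P0, 107, 79.98 and 82.1 at P3 and 74.9, 64.6 and 73.4 at P7. In the RV they were 120.3, 99.9 and 124 at P0, 85.5, 81.9 and 87.4 at P3 and 69.1 and 75.2 at P7. Replicate 1 of LV P3 stood with the P0 libraries, at 107 RPKM, and all P7 libraries were below all others. The change of P7 against P0 was -0.57 ± 0.11 in the LV (adjusted p = 0.000175) and -0.66 ± 0.12 in the RV (adjusted p = 0.000195), and after upper-quartile scaling -0.22 (adjusted p = 0.0447) and -0.33 (adjusted p = 0.0102).

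Psmb6 stood at 158, 159 and 154 RPKM in LV P0, 155, 138 and 146 at P3 and 119, 107 and 106 at P7. The RV levels were 189, 149 and 163 at P0, 156, 131 and 146 at P3 and 113 and 114 RPKM at P7. The libraries of P0 and P3 overlapped, and those of P7 lay below both (log2 = -0.50 ± 0.09, adjusted p = 0.000115 in the LV; log2 = -0.55 ± 0.10, adjusted p = 0.000235 in the RV). Upper-quartile scaling ended the LV call (-0.15, adjusted p = 0.102) but not the RV call (-0.22, adjusted p = 0.0409). Psmb7, the most abundant of the 3 with a mean of 184.5 RPKM, went from 208, 208 and 198 RPKM at P0 through 192, 181 and 171 at P3 to 166, 163 and 167 at P7 in the LV. In the RV it went from 219.9, 195 and 216 at P0 through 162, 177 and 174 at P3 to 167 and 172 RPKM at P7. The RV libraries of P3 and P7 overlapped, and both lay below those of P0. Its log2 changes were -0.30 ± 0.08 and -0.31 ± 0.09 (adjusted p = 0.00204 and 0.00528) and turned to 0.05 and 0.02 after upper-quartile scaling (adjusted p = 0.615 and 0.9). Its changes were thus the smallest of the catalytic genes, though the difference between genes was not tested.

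The other beta ring genes, Psmb1 to Psmb4, have no cleaving site and complete the ring. They were the most abundant group, with means of 128 RPKM (Psmb3) to 198 RPKM (Psmb1), and 4 of 4 were called lower in each chamber (median log2 change -0.35 in the LV and -0.41 in the RV; 0 of 4 after upper-quartile scaling). Psmb1 had the smallest change. It stood at 219, 207 and 214 RPKM in LV P0, 192, 218 and 200.2 at P3 and 194, 179 and 179 at P7. In RV P0 it was at 245, 201 and 208, in RV P3 at 184, 197 and 185 and in RV P7 at 174 and 179 RPKM. P7 lay below P0 in every library of each chamber (log2 = -0.21 ± 0.08, adjusted p = 0.0343 in the LV; log2 = -0.30 ± 0.09, adjusted p = 0.0119 in the RV), and the sign turned after upper-quartile scaling (0.14, adjusted p = 0.199; 0.03, adjusted p = 0.866).

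Psmb2 changed most in that group. Its LV levels were 165, 182 and 165 RPKM at P0, 176, 131 and 162 at P3 and 126, 122 and 118 at P7, and its RV levels 169, 184 and 196 at P0, 162, 137 and 172 at P3 and 125 and 145 RPKM at P7. P7 lay below P0 throughout (log2 = -0.48 ± 0.11, adjusted p = 0.000784 in the LV; log2 = -0.44 ± 0.12, adjusted p = 0.00518 in the RV). Psmb11, which encodes the thymus-specific catalytic subunit and lies beside Psmb5 on the GRCm38 genome (Psmb5: chromosome 14, 54614120 to 54617995; Psmb11: chromosome 14, 54625310 to 54629556), held 0 to 3 reads per library and was not tested.

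The 6 ATPase genes, at means of 53.4 RPKM (Psmc2) to 118 RPKM (Psmc3), were all called lower at P7 in each chamber, with medians of -0.43 in the LV and -0.37 in the RV. None of the 6 was called after upper-quartile scaling in either chamber. Psmc6 declined most averaged over the chambers, although in the LV alone the change of Psmc5 was slightly larger (-0.56 ± 0.11). Psmc6 levels were 116, 121 and 115 RPKM in LV P0, 102, 97.8 and 99.4 at P3 and 83.4, 82.8 and 73.5 at P7. In the RV they were 121, 98.8 and 100.1 at P0, 76.9, 81.9 and 92.4 at P3 and 76.2 and 73.9 at P7. The LV libraries of the 3 ages did not overlap, and each RV P3 library lay below each LV P3 library. P7 differed from P0 by -0.55 ± 0.09 in the LV (adjusted p = 4.01e-05) and by -0.50 ± 0.10 in the RV (adjusted p = 0.000483).

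Psmc3 had the smallest change of the ATPases. It stood at 134, 134 and 124 RPKM in LV P0, 128, 115 and 122 at P3 and 104, 99.3 and 103 at P7. RV levels were 133, 119 and 140.3 at P0, 116, 108 and 120.1 at P3 and 103 and 112 RPKM at P7. P0 and P7 did not overlap (log2 = -0.35 ± 0.08, adjusted p = 0.000999 in the LV; log2 = -0.28 ± 0.09, adjusted p = 0.0138 in the RV). After upper-quartile scaling the change was 0.00 (adjusted p = 0.994) in the LV and 0.04 (adjusted p = 0.704) in the RV.

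Among the 11 non-ATPase genes of the 19S particle, 10 were lower at P7 in the LV and 8 in the RV (4 and 1 after upper-quartile scaling), with medians of -0.44 and -0.28. Psmd6, a lid subunit, was called lower in each chamber under all 3 scalings. It stood at 65.3, 67.4 and 75.2 RPKM in LV P0, 65.1, 56.6 and 60.5 at P3 and 44.4, 46.1 and 46.8 at P7. In the RV it was at 68.9, 65.8 and 69.5 at P0, 54.96, 54.2 and 56.2 at P3 and 41.7 and 45.5 RPKM at P7. The 3 ages did not overlap in either chamber, though the highest LV P3 library came close to the lowest LV P0 library. The change was -0.59 ± 0.08 in the LV (adjusted p = 4.23e-06) and -0.63 ± 0.09 in the RV (adjusted p = 1.12e-05), and -0.24 (adjusted p = 0.0122) and -0.31 (adjusted p = 0.0054) after upper-quartile scaling.

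Psmd14, the deubiquitinase that removes ubiquitin chains from substrates at the entrance of the core, went from 40.03, 46.3 and 43.1 RPKM in LV P0 through 36.6, 33.2 and 32.1 at P3 to 30.4, 26.7 and 25.9 at P7. Its RV levels were 41.6, 40.04 and 42.96 at P0, 31.98, 30.4 and 37 at P3 and 26.7 and 29.6 RPKM at P7. Within each chamber the P7 libraries lay below all P3 and P0 libraries (log2 = -0.62 ± 0.09, adjusted p = 1.42e-05 in the LV; log2 = -0.55 ± 0.10, adjusted p = 0.000267 in the RV). After upper-quartile scaling only the LV change was called (-0.28, adjusted p = 0.0158 in the LV; -0.23, adjusted p = 0.0762 in the RV), and the chamber difference of the deposited values was log2 = 0.08 ± 0.14, adjusted p = 0.998. The ubiquitin receptor gene Psmd4 changed less. It stood at 62.2, 65.97 and 62.2 RPKM in LV P0, 64.5, 53.3 and 56.7 at P3 and 55.4, 46.3 and 52.9 at P7, and in the RV at 71.9, 59.9 and 68.6 at P0, 57.8, 61.2 and 60.7 at P3 and 53.7 and 56.7 RPKM at P7. It was called lower in each chamber (log2 = -0.30 ± 0.09, adjusted p = 0.00822; log2 = -0.27 ± 0.10, adjusted p = 0.0331), and the sign turned after upper-quartile scaling (0.05, adjusted p = 0.567; 0.05, adjusted p = 0.613).

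Psmd11, the lid subunit that clamps the regulatory particle to the core, stood at 40.4, 40.1 and 36.7 RPKM in LV P0, 41.4, 34.4 and 37.6 at P3 and 31.8, 27.8 and 30.4 at P7. In the RV its levels were 42.8, 33.7 and 36.4 at P0, 35.1, 32.2 and 33.3 at P3 and 30.9 and 32.1 RPKM at P7. P7 lay below P0 in each chamber without overlap, yet only the LV change was called (log2 = -0.37 ± 0.09, adjusted p = 0.00225 in the LV; log2 = -0.24 ± 0.11, adjusted p = 0.0573 in the RV), and the test of the difference between the chambers did not pass (log2 = 0.13 ± 0.14, adjusted p = 0.998). Upper-quartile scaling ended the LV call of Psmd11 (-0.03, adjusted p = 0.78) and turned its sign in the RV (0.07, adjusted p = 0.463). Psmd13, another lid subunit, had the smallest change of the 17 genes of the 19S particle in each chamber, assembly chaperones left out. Its LV levels were 51.7, 50.03 and 43.1 RPKM at P0, 47.9, 49.1 and 43.7 at P3 and 49.2, 37.9 and 42.5 at P7, with overlap of all 3 ages. Its RV levels were 54.1, 45.99 and 46.4 at P0, 41.99, 48.3 and 44.2 at P3 and 43.7 and 43.03 RPKM at P7, with P7 just below P0. Neither change passed the test (log2 = -0.16 ± 0.10, adjusted p = 0.172 in the LV; log2 = -0.16 ± 0.11, adjusted p = 0.227 in the RV), and the sign turned after upper-quartile scaling (0.19, adjusted p = 0.117; 0.16, adjusted p = 0.266).

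Psmd2, which encodes a scaffold of the 19S base, was singled out after its values were seen, for its level. Its entry had a mean of 3.98 RPKM (220 to 639 reads per library), while the other 10 non-ATPase genes had means of 34.97 RPKM (Psmd14) to 122 RPKM (Psmd8). RefSeq lists a noncoding transcript of the same gene beside this messenger RNA, and how reads shared by several transcripts were assigned is not stated in the labels, so that the value may not be the total of the gene. LV levels were 4.49, 4.14 and 5.78 RPKM at P0, 4.54, 3.29 and 4.49 at P3 and 3.20, 2.21 and 2.44 at P7, and RV levels 5.45, 4.37 and 5.03 at P0, 3.68, 3.57 and 4.18 at P3 and 2.76 and 4.10 at P7. The P7 libraries lay below the P0 libraries in each chamber, with a log2 change of -0.68 ± 0.15 in the LV (adjusted p = 0.000521) and -0.44 ± 0.16 in the RV (adjusted p = 0.029). After upper-quartile scaling the LV change was called (-0.41, adjusted p = 0.00968) and the RV change was not (-0.18, adjusted p = 0.309).

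**Figure D3:**
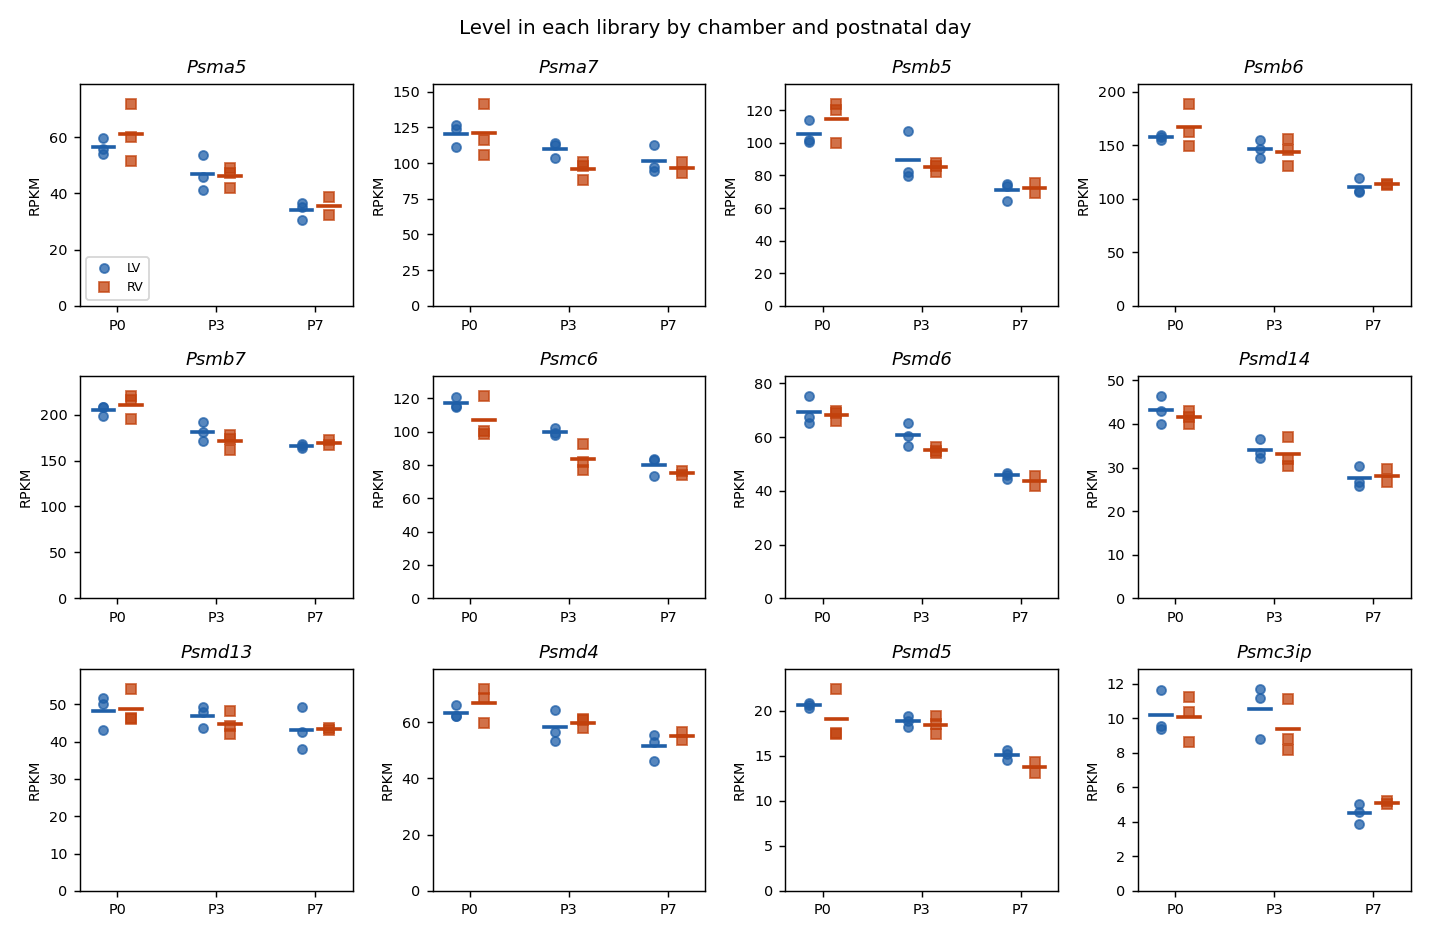
RPKM in each library for 12 of the genes at P0, P3 and P7, with 1 point per library, LV in blue circles, RV in orange squares and short lines for group means (n = 3, n = 2 for RV P7); each vertical axis starts at 0. Psma5, Psmd6 and Psmd14 step down from age to age, Psmd13 overlaps between the ages in the LV, and Psmc3ip overlaps between P0 and P3 and lies lower at P7.

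The genes of the 19S assembly chaperones, which help build the base and are absent from the finished proteasome, were far less abundant, with means of 2.87 RPKM (Psmd10), 9.74 RPKM (Psmd9) and 17.8 RPKM (Psmd5). All 3 were lower at P7 in the LV and 2 in the RV, and 0 after upper-quartile scaling. Psmd5 stood at 20.7, 20.3 and 20.9 RPKM in LV P0, 19.4, 18.8 and 18.2 at P3 and 15.2, 14.5 and 15.6 at P7. In the RV it stood at 22.4, 17.4 and 17.5 at P0, 18.5, 17.4 and 19.4 at P3 and 14.3 and 13.1 RPKM at P7. P7 lay below both other ages (log2 = -0.43 ± 0.09, adjusted p = 0.000611 in the LV; log2 = -0.44 ± 0.10, adjusted p = 0.00151 in the RV). Psmd10, which encodes gankyrin and is given by the more abundant of its 2 entries, was at 3.68, 4.17 and 2.53 RPKM in LV P0, 3.35, 2.68 and 3.09 at P3 and 2.34, 2.11 and 2.45 at P7. RV levels of Psmd10 were 3.10, 2.72 and 2.65 at P0, 2.77, 3.39 and 2.85 at P3 and 2.20 and 2.70 RPKM at P7, with overlap between P0 and P7. The LV change was called and the RV change was not (log2 = -0.42 ± 0.13, adjusted p = 0.00868; log2 = -0.15 ± 0.14, adjusted p = 0.394), and the difference between the chambers was log2 = 0.27 ± 0.19, adjusted p = 0.998. Upper-quartile scaling ended the LV call of Psmd10 (-0.16, adjusted p = 0.28) and turned its sign in the RV (0.09, adjusted p = 0.623).

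Psmc3ip answers to the rule by its symbol only. It encodes a factor of meiotic recombination that binds the Psmc3 product and is no subunit of the proteasome. Its levels in the LV were 9.55, 11.6 and 9.37 RPKM at P0, 11.2, 8.76 and 11.7 at P3 and 5.06, 4.59 and 3.85 at P7. In the RV they were 10.4, 8.60 and 11.2 at P0, 8.82, 8.15 and 11.1 at P3 and 5.003 and 5.23 RPKM at P7. P0 and P3 overlapped, and every P7 library was lower (log2 = -1.02 ± 0.13, adjusted p = 2.97e-06 in the LV; log2 = -0.85 ± 0.15, adjusted p = 0.000125 in the RV). It was also the gene with the largest change from P3 to P7 (-1.07 ± 0.13 in the LV and -0.75 ± 0.15 in the RV).

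The ratio of core to cap levels moved little between P0 and P7, while both fell in the deposited values. The median log2 change of P7 against P0 was -0.45 for the core and -0.44 for the cap in the LV, and -0.44 and -0.32 in the RV. After upper-quartile scaling these medians were -0.10 and -0.09 in the LV and -0.11 and 0.00 in the RV. The median level over the 14 tested 20S genes was 145 ± 6.38 RPKM in LV P0, 130.4 ± 2.64 at P3 and 107 ± 6.76 at P7 (SD, n = 3). In the RV it was 145 ± 11.4, 119 ± 3.21 and 109 ± 6.58 RPKM (n = 2 at P7). Over the 17 genes of the 19S particle the medians were 66.4 ± 1.41, 59.01 ± 5.38 and 48.01 ± 2.79 RPKM in the LV, and 66.7 ± 1.76, 58.4 ± 1.38 and 49.9 ± 0.894 in the RV. The ratio of the 2 medians was 2.19 ± 0.0940 in LV P0 and 2.23 ± 0.0113 in LV P7, and 2.17 ± 0.222 and 2.17 ± 0.0929 in the RV. Within each chamber the P0 and P7 libraries overlapped in this ratio, which does not depend on the scaling of a library.

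In the deposited values more genes were called in the second interval in the LV and in the first in the RV. In the LV, 2 of 35 genes (Psmd3 and Psmd14) were called lower from P0 to P3, where 20.6% of all tested entries were, and 21 from P3 to P7, against 27.9%. In the RV, 16 were called lower from P0 to P3 (21.5% of all entries) and 5 from P3 to P7 (14.8%; Psmb6, Psmd1, Psmd6, Psmd5 and Psmc3ip). In no step was a gene called higher, where 7.26% (P0 to P3) and 6.56% (P3 to P7) of all entries were in the LV, and 9.72% and 2.50% in the RV. Median changes, beside those of all tested entries, were -0.13 (-0.13) and then -0.29 (-0.17) in the LV, and -0.22 (-0.09) and then -0.15 (-0.19) in the RV. After upper-quartile scaling the counts were 0 and then 6 in the LV (10.6% and 12.7% of all entries) and 3 and then 1 in the RV (14.1% and 5.18%), with medians of 0.00 and -0.10 in the LV and -0.09 and 0.03 in the RV. The 2 steps of a chamber share its P3 libraries, and whether the steps differ between the chambers was not tested.

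These counts rested on single libraries, and the counts of all tested entries moved as well. Without replicate 1 of LV P3, 9 genes were called from P0 to P3 and 7 from P3 to P7 in the LV. Over all tested entries 2371 and 1556 were called lower in these fits, beside 2201 and 2974 with all libraries. Without replicate 2 or 3 of LV P7 the second step gave 9 or 13, beside 1825 or 2265 of all tested entries. The LV count for the first step was 1 without replicate 1 or 2 of LV P0 or replicate 3 of LV P3. Of all tested entries 1306, 2119 and 1750 were called lower there. In the RV the first step gave 10, 7 and 10 without replicate 1 of RV P0, replicate 1 of RV P3 and replicate 2 of RV P3. Over all tested entries 1681, 1818 and 1715 were called lower in these fits. The second RV step gave 1 without replicate 3 of RV P3, beside 741 of all tested entries. Leaving out replicate 1 or 2 of RV P7 left 1 RV P7 library. The medians of this step were then -0.10 or -0.23, beside -0.14 or -0.23 for all tested entries. The count over the whole LV interval was steadier, at 29 to 35, beside 4808 to 5552 of all tested entries. In the RV it was 26, 31 and 26 without replicate 1, 2 or 3 of RV P0, beside 4001, 5056 and 4497. Without replicate 1 or 2 of RV P7 the RV medians were -0.36 or -0.42, beside -0.24 or -0.33 for all tested entries.

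By role, and read against the shares of all entries given for each step, the 6 ATPase genes were all called in the second LV step and 0 of them in the first. In the RV, 10 of the 14 core genes were called in the first step and 1 in the second, with medians of -0.31 and -0.14. The 17 genes of the 19S particle gave 6 and then 2 calls in the RV (medians -0.19 and -0.13), and 2 and then 12 in the LV (medians -0.13 and -0.30). The core genes of the LV gave 0 and then 7 (medians -0.18 and -0.26). After upper-quartile scaling 0 ATPase genes were called in any step, the core genes gave 0 and then 2 calls in the LV and 3 and then 0 in the RV, and the 19S particle gave 0 and then 3 in the LV and 0 in each RV step.

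Without a block, no difference between the ventricles was called for any proteasome gene. With limma, 0 of 35 genes passed for RV against LV at P0, at P3 and at P7, where 0.141%, 0.825% and 0.159% of all tested entries did, and at an unadjusted p under 0.05 the counts were 0, 1 and 0. The differences ran from -0.21 to 0.13 at P0, from -0.25 to 0.07 at P3 and from -0.15 to 0.28 at P7 on the log2 scale, with standard errors of 0.07 to 0.16. The gene at the lower end at P3 was Psmc6, at 99.8 ± 2.22 RPKM in the LV and 83.7 ± 7.94 in the RV (SD, n = 3; log2 = -0.25 ± 0.09, adjusted p = 0.239). With LV and RV libraries of the same age and number as a block, this difference was called (log2 = -0.25 ± 0.07, adjusted p = 0.0455), as 1 of 35 genes beside 6.12% of all tested entries. No chamber difference was called in the change from P0 to P7: 0 of 35 genes were called, 0 at an unadjusted p under 0.05, and 0.0375% of all entries were called. The differences of change ran from -0.15 (Psma3) to 0.27 (Psmd10), with standard errors of 0.11 to 0.22, so that chamber differences of this size could not be resolved.

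Marker genes of cell types were counted over the same interval in the deposited values only. Of all tested entries 53.0% were called lower and 11.8% higher in the LV, and 46.1% and 9.81% in the RV. Those of dividing cells fell in 7 of 7 tested cases in each chamber, and the 8 listed markers summed to 299.9 to 354 RPKM in LV P0 and 112 to 122 in LV P7. In the RV the sums were 245 to 323 RPKM at P0 and 117 to 118 at P7. The 10 cardiomyocyte markers, which define the labelled tissue, summed to 30371 to 34698 RPKM in LV P0 and 24299 to 25861 in LV P7. In each chamber 2 of the 10 rose and 5 fell, the falls being near the share of all entries called lower. Of 8 endothelial markers 5 rose and 0 fell in the LV, and 3 rose and 1 fell in the RV. Of 7 tested fibroblast markers 3 rose in the LV and 5 in the RV, and 0 fell. Epicardial markers fell in 4 of 5 cases in the LV and 3 of 5 in the RV, and smooth muscle and pericyte markers rose in 1 and fell in 3 of 5 in each chamber. Of 5 tested erythroid markers 1 rose and 1 fell in the LV, and 0 rose and 2 fell in the RV. The part of these shifts in the decline of the proteasome genes was not tested.

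While the constitutive catalytic genes fell, 2 of the 3 immunoproteasome genes rose. Psmb8, Psmb9 and Psmb10 encode the catalytic subunits that replace the products of Psmb5, Psmb6 and Psmb7 in immune cells and under interferon. Psmb8 stood at 0.538, 2.52 and 0.910 RPKM in LV P0, 4.20, 2.91 and 3.45 at P3 and 5.98, 5.96 and 6.09 at P7. In the RV it stood at 0.710, 1.62 and 1.22 at P0, 3.40, 3.41 and 3.22 at P3 and 3.64 and 3.55 RPKM at P7. The P3 and P7 libraries lay above all P0 libraries in each chamber, including both P7 libraries that carry NM_008710 above 1 RPKM (log2 = 1.69 ± 0.21, adjusted p = 1.66e-06 in the LV; log2 = 1.10 ± 0.23, adjusted p = 0.00071 in the RV).

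Psmb9 was at 0.121, 1.06 and 0.875 RPKM in LV P0, 1.49, 1.01 and 1.56 at P3 and 3.49, 2.65 and 2.52 at P7, and in the RV at 0.348, 0.558 and 0.342 at P0, 1.66, 0.945 and 0.857 at P3 and 1.89 and 2.26 at P7. It rose in each chamber without overlap between P0 and P7 (log2 = 1.25 ± 0.19, adjusted p = 1.38e-05; log2 = 1.12 ± 0.21, adjusted p = 0.00021). Psmb10, the abundant member of the 3, was not called, with 33.01 ± 4.35 and 34.9 ± 2.74 RPKM in LV P0 and P7 (SD, n = 3; log2 = 0.08 ± 0.10, adjusted p = 0.466) and 34.9 ± 2.79 and 30.5 ± 0.0712 in the RV (n = 2 at P7; log2 = -0.19 ± 0.11, adjusted p = 0.158). After upper-quartile scaling it was called higher in the LV (0.43, adjusted p = 0.00404) and not in the RV (0.13, adjusted p = 0.438). The rises of Psmb8 and Psmb9 passed under that scaling too.

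Within a library the share of each immunoproteasome gene in its catalytic pair needs no scaling. Psmb8 made up 0.524, 2.44 and 0.790% of the summed RPKM of Psmb8 and Psmb5 in LV P0, 3.77, 3.51 and 4.03% at P3 and 7.39, 8.44 and 7.66% at P7. In the RV it made up 0.587, 1.59 and 0.972% at P0, 3.82, 3.999 and 3.55% at P3 and 5.01 and 4.51% at P7. The 3 ages did not overlap in either chamber. At P7 each LV library lay above each RV library, but this difference in share was not tested. Of the 3 immunoproteasome genes, 0 were called for RV against LV at P7 and 0 for the chamber difference in change. The share of Psmb9 beside Psmb6 was 0.433 ± 0.313% in LV P0 and 2.53 ± 0.276% in LV P7, and 0.256 ± 0.103% and 1.80 ± 0.207% in the RV. That of Psmb10 beside Psmb7 was 13.9 ± 1.38% in LV P0 and 17.4 ± 0.979% in LV P7, and 14.3 ± 1.58% and 15.3 ± 0.318% in the RV, where P0 and P7 overlapped (SD, n = 3, n = 2 for RV P7). The constitutive gene thus held the greater part of each pair in all 17 libraries.

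**Figure D4:**
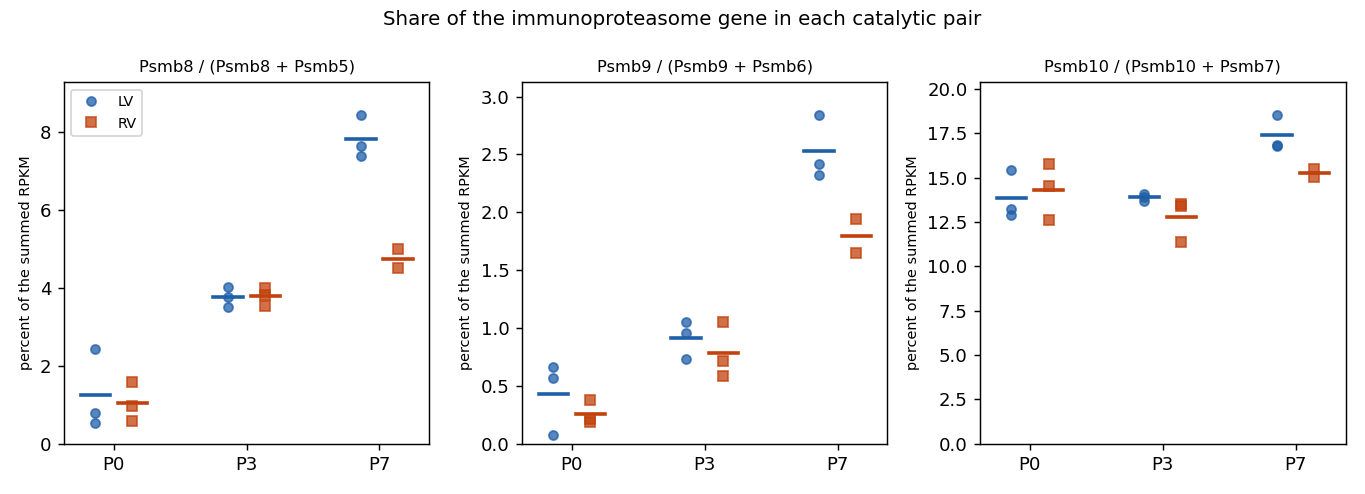
Share of the immunoproteasome gene in the summed RPKM of each catalytic pair, in percent, with 1 point per library, LV in blue circles, RV in orange squares and short lines for group means; axes start at 0. The Psmb8 share rises from at most 2.44% at P0 to at least 7.39% in LV P7 and 4.51% in RV P7, while the Psmb10 share overlaps between P0 and P7 in the RV.

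Immune cell markers were counted between P0 and P7 in the deposited values. Of all tested entries 11.8% were called higher in the LV and 9.81% in the RV. Of 7 tested macrophage markers 6 rose and 0 fell in the LV, and 7 rose in the RV. They summed to 60.2 to 75.1 RPKM in LV P0 and 101 to 114 in LV P7, and to 42.4 to 64.7 in RV P0 and 102 to 107 in RV P7. The 6 lymphoid markers summed to 0.213 to 0.364 RPKM in LV P0, where Cd3e was at 0 in all 3 libraries, and to 2.22 to 2.71 in LV P7. In the RV they summed to 0.172 to 0.358 RPKM at P0 and 1.43 to 1.55 at P7, with Nkg7 at 0 in both RV P7 libraries. The 1 lymphoid marker that was tested rose in each chamber. The part of immune cells in the rise of Psmb8 and Psmb9 was not tested.

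Genes that work with the proteasome are read against the shares of all tested entries called lower in the deposited values, 53.0% in the LV and 46.1% in the RV. Ubiquitin and its E1 enzymes stood near these shares in each chamber (50%), as did the regulators of proteasome genes in the LV (50%) and the factors that bind the proteasome in the RV (50%). Of the 5 genes of activators and the inhibitor of the core, 4 were lower and 0 higher in each chamber, with medians of -0.31 in the LV and -0.34 in the RV. Psme3, the nuclear activator, changed by -0.47 and -0.44, the interferon-inducible activator genes Psme1 by -0.28 and -0.34 and Psme2 (1 of 2 entries) by -0.31 and -0.57, and Psme4 by -0.34 and -0.21, all of them called. After upper-quartile scaling 1 of the 5 was called higher and 0 lower in the LV, and 0 higher and 1 lower, Psme2, in the RV.

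Of the 5 assembly chaperone genes of the core, 3 were lower in the LV, 4 in the RV and 0 higher (1 and 2 lower after upper-quartile scaling). Psmg1, which helps form the alpha ring, fell from 26.5 ± 0.989 to 15.8 ± 1.60 RPKM in the LV (SD, n = 3; log2 = -0.71 ± 0.09, adjusted p = 3.88e-06) and from 28.3 ± 2.06 to 17.4 ± 0.320 in the RV (n = 2 at P7; log2 = -0.67 ± 0.11, adjusted p = 4.50e-05), and remained called after upper-quartile scaling in each. Pomp, which matures the beta ring, changed by -0.48 and -0.65 and Psmg2 by -0.49 and -0.47. Among 14 factors that bind the proteasome, 10 were lower in the LV, 7 in the RV and 0 higher (1 higher and 2 lower in each after upper-quartile scaling). The deubiquitinase gene Usp14, given by 1 of its 2 entries, had the largest change averaged over the chambers (log2 = -0.70 ± 0.14, adjusted p = 0.00022 in the LV; log2 = -0.56 ± 0.15, adjusted p = 0.0047 in the RV), while the ubiquitin receptor gene Adrm1 was not called (log2 = -0.18 ± 0.10, adjusted p = 0.139; log2 = -0.10 ± 0.11, adjusted p = 0.477).

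Of the 8 genes listed as regulators of proteasome genes, 6 were tested, of which 3 were lower in the LV and 4 in the RV and 0 higher; after upper-quartile scaling 1 was higher and 1 lower in the LV, and 1 higher and 2 lower in the RV. Maff, one of the small Maf partners of the Nfe2l factors, fell from 6.51 ± 2.17 to 1.45 ± 0.196 RPKM in the LV (SD, n = 3; log2 = -1.58 ± 0.20, adjusted p = 2.25e-06) and from 6.22 ± 2.58 to 1.30 ± 0.387 in the RV (n = 2 at P7; log2 = -1.60 ± 0.23, adjusted p = 1.32e-05), under either scaling. Of the other small Maf genes, Mafk fell by log2 0.34 in the LV and 0.64 in the RV, and Mafg was called in the RV (-0.39) but not in the LV (-0.21). The highest of the 2 Nfe2l1 entries had a mean of 0.849 RPKM and the highest of 4 Keap1 entries 0.285, so neither gene was tested; with several entries per gene these are not totals of the genes.

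Of the 6 genes of ubiquitin and its E1 enzymes, 3 were lower in each chamber and 0 higher (2 higher and 2 lower in the LV and 0 and 2 in the RV after upper-quartile scaling), led by the E1 gene Uba1, given by the highest of its 4 entries (log2 = -0.77 ± 0.15, adjusted p = 0.000158 in the LV; log2 = -0.77 ± 0.16, adjusted p = 0.000654 in the RV). Uba6 changed by -0.75 and -0.58 and the polyubiquitin gene Ubb by -0.44 and -0.47. Of 10 genes of the unfoldase p97, which extracts substrates ahead of the proteasome, and its cofactors, 8 were lower in the LV, 6 in the RV and 0 higher; Vcp, which encodes p97, changed by -0.53 and -0.33. After upper-quartile scaling 2 were higher and 1 lower in the LV and 1 higher and 0 lower in the RV.

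The ubiquitin ligase genes associated with muscle atrophy moved both ways. Of 11 tested, 3 were higher and 3 lower in the LV, and 2 higher and 2 lower in the RV (4 and 1, and 6 and 1, after upper-quartile scaling). Trim54, a ligase of the sarcomere, rose from 1.46, 1.29 and 1.49 RPKM in LV P0 to 9.66, 8.42 and 9.85 in LV P7, and from 2.03, 3.02 and 3.58 to 7.84 and 8.82 in the RV (log2 = 2.09 ± 0.14, adjusted p = 3.54e-10 in the LV; log2 = 1.29 ± 0.15, adjusted p = 1.66e-06 in the RV). Its relative Trim55 fell from 140.1, 136 and 128 RPKM to 53, 47.9 and 50.2 in the LV, and from 128, 135 and 128 to 48.9 and 64.3 in the RV (log2 = -1.40 ± 0.10, adjusted p = 1.01e-09; log2 = -1.20 ± 0.11, adjusted p = 6.90e-08). Neither gene overlapped between P0 and P7, and both changes held under either scaling. Fbxo32, which encodes atrogin, rose in each chamber (log2 = 0.36 ± 0.12, adjusted p = 0.0154; log2 = 0.51 ± 0.14, adjusted p = 0.0041). Trim63 was not called (log2 = -0.21 ± 0.10, adjusted p = 0.07; log2 = 0.08 ± 0.11, adjusted p = 0.538), though in the RV it was called higher after upper-quartile scaling (0.41, adjusted p = 0.00756).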

How the data were processed

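The authors deposited RPKM values, 1 for each RefSeq mRNA entry in each library; the unit was inferred, since low values were whole multiples of a step that shrank with transcript length. Dividing by the step gave whole reads, to within 0.02, for 20624 of 20624 entries, but whether a pair counts as 1 fragment or 2 reads is unknown. Per the submitters' processing notes, STAR 2.4.0j and mm10 were used; the sources used here do not state the counting tool, annotation or filters. Entries were named from RefSeq tables of GRCm38.p6 (20379) and GENCODE (76), and 169 stayed unnamed; for genes with several entries the one with the highest mean was used.

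Values were taken as log2(RPKM + 1) for the 10668 entries that reached 1 RPKM in 2 or more libraries. A linear model of the 6 group means over all 17 libraries was fitted with limma 3.58.1 (trended eBayes) in R 4.3.3. Adjustment was by Benjamini-Hochberg over all tested entries. The fit was run on simulated data first. Noise there was independent in each library, without the library-wide shift with age or the pairing described below, so that run does not cover them. A fold change on this scale understates changes of low entries. Tables were made with pandas 2.3.3 and numpy 2.4.6 in Python 3.11.15, and plots with matplotlib 3.10.9. Alternatives were upper-quartile and listed-total scaling, a pseudocount of 0.1 RPKM, no filter, entries summed per gene, eBayes without trend, only the groups compared, each library left out, and blocks by replicate number. Those by NM_008710 and the age-matched block were chosen after seeing the data.

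LV and RV libraries of the same age and number deviated together from their group means (8 of 8 correlations over 0.1, 0.27 to 0.59), while only 3 of 32 pairs of different ages did; this pairing comes from the data, as no label states it. Members and gene lists were chosen with earlier results of these data known. In each role the members with the highest and lowest mean change are named, and always the catalytic subunits, Psmd4, Psmd11, Psmd14, Psma8, Psmb11 and Psmc3ip; in each list up to 3 called genes with the largest change, and some fixed names. Other genes named in small counts were chosen after their values were seen. The labels do not say that the replicates are separate animals, so p-values measure the spread between these libraries.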

Additional observations from a re-analysis of the deposited data

How the results depend on the processing

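The scaling of the libraries moved the counts most. For P7 against P0, upper-quartile scaling left 7 of 35 genes called in the LV and 6 in the RV, and scaling to the listed total 15 and 5. For P3 against P0 these scalings gave 0 and 0 in the LV and 3 and 0 in the RV, and for P7 against P3 6 and 8 in the LV and 1 and 3 in the RV. After upper-quartile scaling the log2 change of P7 against P0 was above 0 for 10 of 35 genes in the LV (up to 0.19, Psmd13) and 14 in the RV (up to 0.16, Psmd3), and after scaling to the listed total for 4 (up to 0.11, Psmd13) and 14 (up to 0.16, Psmd3), with 0 of these called. Among the named genes that had been called lower, the values above 0 after upper-quartile scaling were 0.11 for Psma7, 0.051 for Psmb7, 0.14 for Psmb1, 0.00081 for Psmc3 and 0.052 for Psmd4 in the LV, and 0.013, 0.016, 0.025, 0.042 and 0.055 for the same genes in the RV. For the same genes they were, after scaling to the listed total, 0.025 for Psma7 and 0.059 for Psmb1 in the LV, and 0.013 for Psma7, 0.016 for Psmb7, 0.025 for Psmb1, 0.042 for Psmc3 and 0.054 for Psmd4 in the RV.

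The 10 libraries with NM_008710 above 1 RPKM leave 1 library in each later group, so only medians are given, with those of all tested entries in brackets. They were -0.38 (-0.27) in the LV and -0.42 (-0.33) in the RV for P7 against P0. For P3 against P0 they were -0.05 (-0.05) and -0.24 (-0.06), and for P7 against P3 -0.32 (-0.20) and -0.20 (-0.25). With the 7 libraries below it, 5 genes were called for P7 against P3 in the LV, beside 1120 of all entries called lower. In the RV, with 1 P7 library, the median was -0.11 (-0.13). These fits hold fewer libraries. With only the groups compared, 9 were called for RV P7 against P3, beside 2080 of all entries called lower (1575 in the main fit). Leaving out each library gave 29 to 35 and 19 to 31 for P7 against P0 in the LV and RV, 1 to 9 and 7 to 18 for P3 against P0, 7 to 23 and 0 to 4 for P7 against P3, and 0 for each chamber comparison. The age-matched replicate block called 1 gene, Psmc6, for RV against LV at P3 and moved no other count of proteasome genes by more than 1.5 times, while over all tested entries it raised the calls for RV against LV from 15 to 79 at P0, 88 to 653 at P3 and 17 to 153 at P7, and for the chamber difference in change from 4 to 38; the replicate number as a fixed block gave 34 and 32 for P7 against P0. For the other shifts the cause was not tested. Psma8 and Psmb11 were too low to test at this depth.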
